A study of Mus musculus with 27 samples.

Results

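Hepatic gene expression was compared between mice lacking hepatocyte growth factor activator (HGFAC) and their littermate controls, with the knockout effect estimated once over both diets. All 27 mice of the 27 in the series entered one additive model of the RNA-Seq counts, in which diet was a covariate and genotype (KO against control) the tested term. The mice were males of the C57BL/6J strain, 8 weeks old at the start of the diets, and made up 4 groups, namely 7 control mice on chow, 6 HGFAC-KO mice on chow, 7 control mice on a diet rich in fat and sucrose (HF/HS) and 7 HGFAC-KO mice on HF/HS. The knockout is a whole-body CRISPR/Cas9 deletion that removes exon 2 whole and a part of exon 1, so it is not restricted to hepatocytes, and the labels name no other allele or agent in any group. Each sample is 1 library of snap-frozen liver and is called a mouse here, although the labels do not state that each came from a separate animal, and in such bulk samples fewer cells of a type and less RNA per cell cannot be told apart.

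Hepatocyte growth factor (HGF) is made as an inactive precursor, and HGFAC, a liver-derived protease of plasma, is among the enzymes that cut it into its active form. Mature HGF signals through MET, its receptor tyrosine kinase. HGF and MET are known in liver for growth and repair after injury. PPARα, the fatty acid-sensing nuclear receptor most abundant in hepatocytes, drives genes of mitochondrial and peroxisomal fatty acid oxidation, whereas PPARγ is better known for lipid storage.

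Libraries held 36056177 to 57298657 counts. Counts on rows without a gene name took 4.13% to 12.1% of a library, the highest share being in KO chow mouse 6. The labelled tissue showed in its markers, as 12 hepatocyte markers summed to 105900 to 147800 CPM (counts relative to library size) and 17 macrophage markers to 221 to 597 CPM. The libraries of 2 mice stood apart, KO chow 1 at a Euclidean distance of 48.1 (log2 CPM over the genes tested) from its group mean and control HF/HS 7 at 47.4, while the next was at 35.5. They were picked out after the data were seen, on a principal component analysis. Values below are CPM after TMM scaling, and each fold change is a log2 difference, KO minus control.

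The targeted transcript was lower in every KO mouse. *Hgfac* (chr5:35041509-35048461, plus strand, GRCm38; 14 exons in its longest transcript by exon count) ranged on chow over 183 to 219 CPM (median 201) in the controls and 65.4 to 84.5 CPM (median 76.7) in the knockouts. On HF/HS it ranged over 247 to 296 CPM (median 273) in the controls and 81.8 to 101 CPM (median 89.2) in the knockouts. The genotypes did not overlap on either diet, and the fold change over both diets was -1.49 ± 0.05 (SE, n = 14 controls and 13 KO mice; edgeR adjusted p = 1.46e-19). KO mice kept 37.4% of the control mean on chow and 33.8% on HF/HS. The counts are per gene, so reads on the exons outside the deletion are included. In a two-sided exact permutation test of log2 CPM with genotypes permuted within each diet (5889312 arrangements), p was 1.7e-07, the smallest that this design can give. *Hgfac* was also the only gene of 13932 tested whose genotypes were fully separated on both diets in the same direction (0.00718%), while 19 genes were separated on chow (0.136%) and 12 on HF/HS (0.0861%).

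Besides *Hgfac*, 21 genes differed between genotypes over both diets, 14 being higher and 7 lower in KO livers. The 22 genes are 0.158% of the 13932 genes tested (edgeR quasi-likelihood test, Benjamini-Hochberg adjusted p under 0.05), with 0.1% higher and 0.0574% lower. At an unadjusted p under 0.05 the model picked out 1821 genes (13.1%), of which 963 were higher and 858 lower. The diet term of the same model passed for 3268 genes (23.5%). When each diet was fitted alone, 1 of 13571 genes passed on chow (0.00737%) and 2 of 13544 on HF/HS (0.0148%). At an unadjusted p under 0.05 those fits gave 812 genes (5.98%) and 1306 genes (9.64%). The average over both diets was the more precise estimate, its median standard error being 0.067 against 0.0893 on chow and 0.0939 on HF/HS over the same 13422 genes. For 90% of the genes tested, the 95% interval of the shared effect lay within a 1.5-fold change in either direction. The number of genes passing depended on single mice. With each of the 27 mice left out in turn it ran from 2 to 63, and *Hgfac* was the only one to pass in all 27 fits, while all 22 genes kept their direction in each. Leaving out control chow mouse 1, 2, 4 or 7 gave 6, 12, 13 and 10 genes. Leaving out control HF/HS mouse 1, 3, 5 or 6 gave 3, 7, 12 and 12, while 39 passed without control HF/HS mouse 4 and 63 without mouse 7. Leaving out KO HF/HS mouse 1, 2, 3 or 7 gave 8, 2, 9 and 2, and 43 passed without KO HF/HS mouse 5. Each of the other 12 mice moved the count by less than 1.5 times. With the same model DESeq2 called 180 of the 11767 genes it adjusted, 83 higher and 97 lower, and included 19 of the 22. Without its independent filtering, a setting chosen after seeing the data, it called 163 of 13928 and included all 22.

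The effect was compared between diets from mice that the other diet did not share. Over 13421 genes other than *Hgfac*, the log2 fold changes on chow and on HF/HS had a Pearson r of 0.232 (Spearman rho 0.26), given here as a description. Their signs matched for 58.6% of these genes. Of the 803 genes with an unadjusted p under 0.05 on chow, 610 (76%) had the same sign on HF/HS, and 1025 of the 1297 with such a p on HF/HS (79%) had the same sign on chow. Both diets gave an unadjusted p under 0.05 for 152 genes with matching signs and for 2 with opposite signs. Of the 22 genes past the threshold, 21 were tested on each diet alone, and all 21 had the same sign on both and an unadjusted p under 0.05 on both. These genes were chosen from the same mice, so matching signs among them are partly built in. The genotype by diet term passed for 0 genes by edgeR, DESeq2 and limma voom, although edgeR gave it an unadjusted p under 0.05 for 506 genes (3.63%). Its lowest unadjusted p among the 22 was 0.0693, for *Hes1*.

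**Figure D1:**
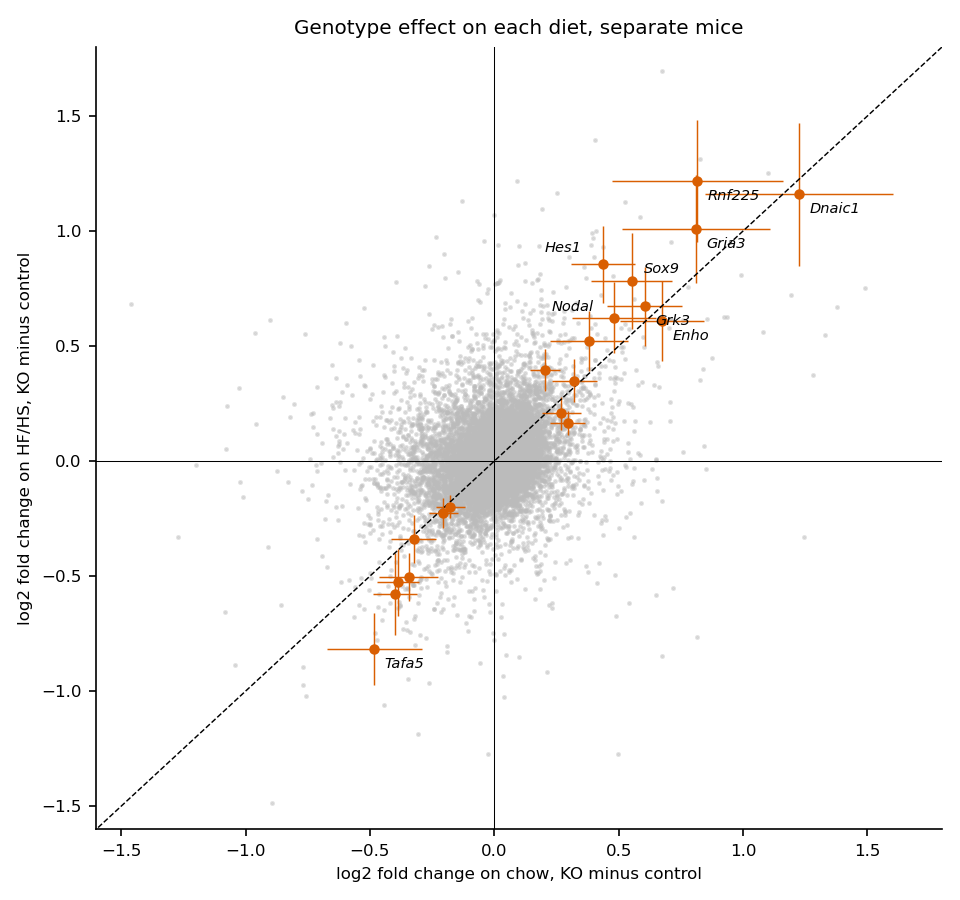
Log2 fold change, KO minus control, on chow (horizontal axis) and on HF/HS (vertical axis), fitted on separate mice, with each gene as a grey point, the genes past the threshold over both diets in orange with 1 SE on each axis, and *Hgfac* and *Gldn* left out. All 20 orange genes shown have the same sign on both diets, which is partly built in since they were picked for the effect over both, and lie on either side of the dashed line of equal effects, while the grey points have an r of 0.232.

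Among the genes that rose, *Hes1*, a transcriptional repressor induced by Notch signaling (chr16:30064384-30067796, plus strand), had one of the smallest p-values. On chow it ranged over 9.41 to 16.9 CPM (median 12.8) in the controls and 14.8 to 21.97 CPM (median 17.3) in the knockouts. The HF/HS levels were 8.22 to 13.9 CPM (median 10.9) in the controls and 10.9 to 25.6 CPM (median 23.8) in the knockouts. All 6 chow KO mice and all 7 HF/HS KO mice lay above the median of their controls, 3 and 6 of them above every control (log2 fold change 0.65 ± 0.12 (SE), edgeR adjusted p = 0.0283). It passed in 25 of the 27 fits with 1 mouse left out. *Sox9*, a transcription factor of cholangiocytes and liver progenitors, ranged on chow over 11.1 to 26.5 CPM (median 17.9) in the controls and 22.6 to 31.5 CPM (median 27.9) in the knockouts. On HF/HS its ranges were 8.67 to 22.3 CPM (median 15.9) in the controls and 17.8 to 38.1 CPM (median 24.2) in the knockouts. In all, 3 KO mice on chow and 6 on HF/HS exceeded every control (log2 fold change 0.67 ± 0.14 (SE), edgeR adjusted p = 0.0434), and the gene passed in 9 of the 27 fits. Of the 10 cholangiocyte markers tested, *Sox9* was the 1 higher and *Aqp1*, a water channel, the 1 lower at an unadjusted p under 0.05 (10% each, against 6.91% of all genes higher and 6.16% lower), and *Krt19*, the bile duct keratin, had a log2 fold change of 0.08 ± 0.16 (SE; a gene chosen after its values were seen). The sum of the 12 markers lay between 128 and 174 CPM in all groups, with medians of 139 and 149 CPM in control and KO mice on chow and 155 and 161 CPM on HF/HS.

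*Alb*, the gene of serum albumin (chr5:90460897-90476602, plus strand), rose in livers where it was already the most abundant of the genes named here. On chow it ranged over 55260 to 66870 CPM (median 58940) in the controls and 63740 to 73820 CPM (median 69240) in the knockouts. The HF/HS values were 52930 to 69290 CPM (median 56100) in the controls and 64170 to 89870 CPM (median 79790) in the knockouts. In all, 5 chow KO mice and 6 HF/HS KO mice exceeded every control on their diet. The fold change was 0.30 ± 0.06 (SE; edgeR adjusted p = 0.0283), and *Alb* alone took 5.29% to 8.81% of a library's named counts. The other 11 hepatocyte markers, summed without *Alb*, had medians of 53950 and 55560 CPM in control and KO mice on chow and 56660 and 57330 CPM on HF/HS. *Apom*, an apolipoprotein carried mainly on HDL, ranged on chow over 184 to 240 CPM (median 208) in the controls and 220 to 292 CPM (median 260) in the knockouts. Its range on HF/HS was 185 to 222 CPM (median 200) in the controls and 212 to 251 CPM (median 223) in the knockouts. Respectively, 5 and 4 of the KO mice were above every control (log2 fold change 0.23 ± 0.04 (SE), edgeR adjusted p = 0.0284).

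*Enho* and *Dnaic1*, neighbors on chromosome 4, both rose. *Enho* encodes adropin, a secreted peptide of energy metabolism, and lies at chr4:41638144-41640324, minus strand, while *Dnaic1*, a dynein intermediate chain of motile cilia, lies at chr4:41569775-41638158, plus strand. The annotated genes run toward each other and overlap by 15 bases, and whether the counting used strand is not given in the sources used here, so reads of the pair are uncertain. *Enho* ranged on chow over 10.9 to 17.6 CPM (median 16.7) in the controls and 14.8 to 35.9 CPM (median 26.1) in the knockouts. On HF/HS its ranges were 16.7 to 36.03 CPM (median 28.6) in the controls and 28.3 to 50.5 CPM (median 40.9) in the knockouts. In all, 5 KO mice on each diet exceeded every control (log2 fold change 0.64 ± 0.13 (SE), edgeR adjusted p = 0.0284). *Dnaic1* was far lower, at 0.172 to 0.274 CPM (median 0.240) in the controls and 0.205 to 1.42 CPM (median 0.493) in the knockouts on chow. On HF/HS it was at 0.263 to 0.950 CPM (median 0.548) in the controls and 0.594 to 2.50 CPM (median 1.23) in the knockouts (log2 fold change 1.18 ± 0.24 (SE), edgeR adjusted p = 0.0361). *Dnaic1* passed in 14 of the 27 fits with 1 mouse left out.

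The largest fold change among the genes past the threshold belonged to *Gldn*, which encodes gliomedin, an adhesion protein of the node of Ranvier, and was barely expressed. On chow it ranged over 0 to 0.220 CPM (median 0.104) in the controls and 0.209 to 3.28 CPM (median 0.352) in the knockouts, 1 control being listed at 0. Mice on HF/HS had 0.157 to 0.850 CPM (median 0.264) in the controls and 0.710 to 2.95 CPM (median 1.55) in the knockouts. In all, 5 chow KO mice and 6 HF/HS KO mice exceeded every control (log2 fold change 2.35 ± 0.42 (SE), edgeR adjusted p = 0.0283). Without KO chow mouse 6, the highest, the log2 fold change was 1.94. The filter on low counts kept *Gldn* out of the fit on chow alone. *Grk3*, a kinase that desensitizes G protein-coupled receptors, ranged on chow over 7.33 to 11.1 CPM (median 8.30) in the controls and 10.01 to 19.7 CPM (median 12.2) in the knockouts. On HF/HS its ranges were 6.42 to 12.1 CPM (median 8.74) in the controls and 8.70 to 20.5 CPM (median 14.3) in the knockouts (log2 fold change 0.64 ± 0.12 (SE), edgeR adjusted p = 0.0283). The controls and KO mice overlapped on both diets, with 3 chow and 5 HF/HS KO mice above every control. The other 6 genes rose. *Tent5a*, a poly(A) polymerase, had a log2 fold change of 0.33, *Nodal*, a TGF-β family ligand, 0.55, *Gria3*, a glutamate receptor subunit, 0.92, *Grhl1*, an epithelial transcription factor, 0.45, *Rnf225*, a ring finger protein, 1.02, and *9930104L06Rik* 0.23, with edgeR adjusted p-values from 0.0284 to 0.047. *Grhl1* was the one whose genotypes did not overlap on HF/HS, at 1.21 to 2.01 CPM (median 1.71) in the controls and 2.02 to 3.07 CPM (median 2.24) in the knockouts.

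**Figure D2:**
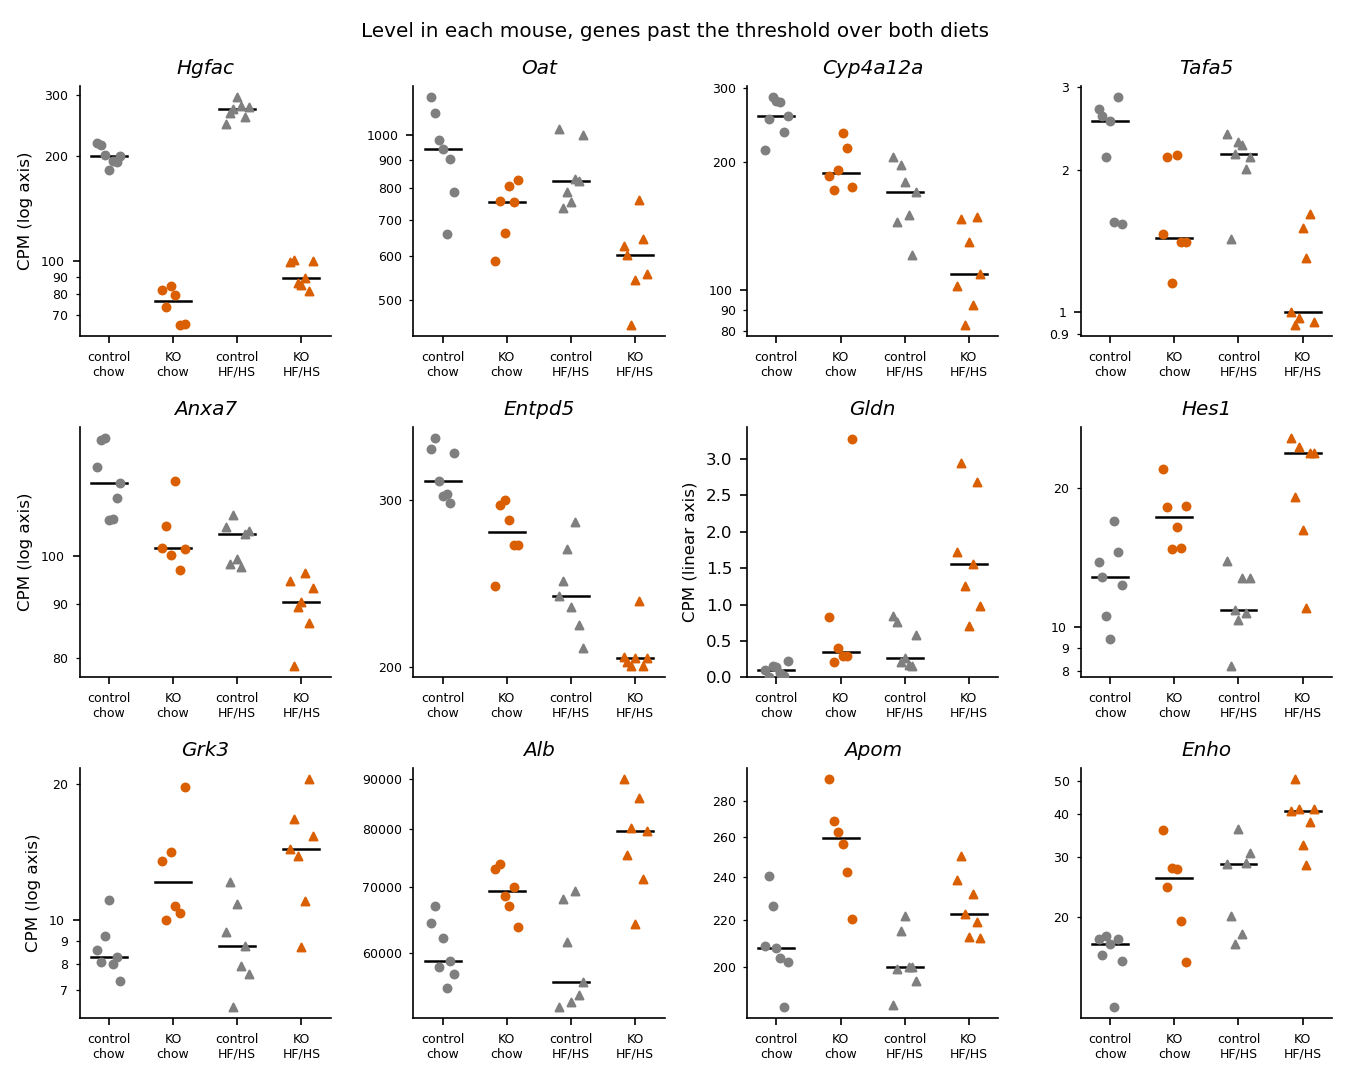
CPM in each mouse for the 6 genes with the smallest p among those lower and the 6 among those higher in KO mice, with controls in grey, KO mice in orange, circles for chow, triangles for HF/HS and black bars at group medians (log axes, except a linear axis from 0 for *Gldn*). *Hgfac* separates completely on both diets, at 65.4 to 84.5 CPM in KO and 183 to 219 CPM in control mice on chow, whereas the other 11 genes overlap on at least 1 diet.

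Of the 8 genes that fell, *Hgfac* included, 3 encode enzymes of fatty acid handling. *Cyp4a12a* (chr4:115299046-115332815, plus strand), a cytochrome P450 that hydroxylates fatty acids at the ω end in male mice, ranged on chow over 214 to 285 CPM (median 258) in the controls and 172 to 235 CPM (median 189) in the knockouts. On HF/HS it ranged over 121 to 206 CPM (median 171) in the controls and 82.8 to 149 CPM (median 109) in the knockouts. Every KO mouse was below the median of its controls, and 4 on each diet were below all of them (log2 fold change -0.46 ± 0.09 (SE), edgeR adjusted p = 0.0283). Its paralog *Cyp4a12b*, which lies 78808 bases away on the same strand, was at 92.9 to 122 CPM (median 99.4) in the controls and 64.7 to 91.95 CPM (median 79.5) in the knockouts on chow. Those chow groups did not overlap. On HF/HS the paralog's levels were 59.03 to 94.7 CPM (median 85.3) in the controls and 34.9 to 74.3 CPM (median 50) in the knockouts, which overlapped, with 5 of 7 KO mice below every control (log2 fold change -0.49 ± 0.10 (SE), edgeR adjusted p = 0.0434). The paralogs are nearly identical in sequence, so reads may have been split between them and their values are not separate evidence. *Acaa1b*, a peroxisomal 3-ketoacyl-CoA thiolase with a close paralog in *Acaa1a*, ranged on chow over 1339 to 1753 CPM (median 1521) in the controls and 1040 to 1493 CPM (median 1266) in the knockouts. The HF/HS levels were 1824 to 2960 CPM (median 2163) in the controls and 1370 to 2141 CPM (median 1748) in the knockouts. The groups overlapped on both diets (log2 fold change -0.33 ± 0.07 (SE), edgeR adjusted p = 0.0434), and the gene passed in 8 of the 27 fits.

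The other 4 genes that fell have diverse roles. *Oat*, the mitochondrial ornithine aminotransferase (chr7:132557478-132576398, minus strand), ranged on chow over 660 to 1169 CPM (median 941) in the controls and 590 to 825 CPM (median 755) in the knockouts. Its range on HF/HS was 735 to 1023 CPM (median 823) in the controls and 450 to 762 CPM (median 605) in the knockouts. On chow 1 KO mouse, and on HF/HS 6 KO mice lay below every control (log2 fold change -0.43 ± 0.08 (SE), edgeR adjusted p = 0.0283). *Anxa7*, a calcium-dependent membrane-binding annexin, was at 97.7 to 110 CPM (median 105) in the controls and 78.6 to 96.4 CPM (median 90.4) in the knockouts on HF/HS, where the genotypes did not overlap. On chow it was at 108 to 130 CPM (median 118) in the controls and 96.95 to 118 CPM (median 102) in the knockouts (log2 fold change -0.19 ± 0.04 (SE), edgeR adjusted p = 0.0284). *Entpd5*, an ER nucleotidase of glycoprotein folding, had a log2 fold change of -0.20 ± 0.06 on chow and -0.22 ± 0.07 on HF/HS (edgeR adjusted p over both diets = 0.0294). *Tafa5*, a secreted chemokine-like protein, was low throughout. It had a log2 fold change of -0.48 ± 0.19 on chow and -0.82 ± 0.16 on HF/HS (edgeR adjusted p over both diets = 0.0284).

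Most genes of fatty acid oxidation had lower values in KO livers. Of the 58 genes listed as PPARα targets or enzymes of fatty acid oxidation, all of which were tested, 54 had a negative and 4 a positive fold change over both diets. At an unadjusted p under 0.05, 35 were lower (60.3%, against 6.16% of all genes tested) and 0 higher (against 6.91%), and 3 passed the adjusted threshold, namely *Cyp4a12a*, *Cyp4a12b* and *Acaa1b*. The list's median log2 fold change was -0.12, and that of all genes tested was -0.0031. Fitted separately, 51 of the 58 were lower on chow (median -0.09) and 51 on HF/HS (median -0.15). Without both libraries that stood apart, 35 were lower and 0 higher at that p, with a median of -0.11. In that fit 14.7% of all genes had such a p in either direction, against 13.1% with all mice.

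The other members did not pass by edgeR. *Aldh3a2*, a fatty aldehyde dehydrogenase chosen after its values were seen, had a log2 fold change of -0.51 ± 0.12 (SE, edgeR adjusted p = 0.0626). *Cpt2*, the inner carnitine palmitoyltransferase, had a log2 fold change of -0.14 ± 0.04 (SE, edgeR adjusted p = 0.103), although its genotypes did not overlap on HF/HS, at 220 to 260 CPM (median 227) in the controls and 195 to 217 CPM (median 205) in the knockouts. DESeq2 called both *Aldh3a2* (adjusted p = 0.00408) and *Cpt2* (adjusted p = 0.0242). *Ppara* itself had a log2 fold change of -0.15 ± 0.09 (SE, edgeR adjusted p = 0.458). *Pdk4*, a pyruvate dehydrogenase kinase and PPARα target, was among the 4 members with a positive value, at 0.14 ± 0.17 (SE, edgeR adjusted p = 0.783).

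**Figure D3:**
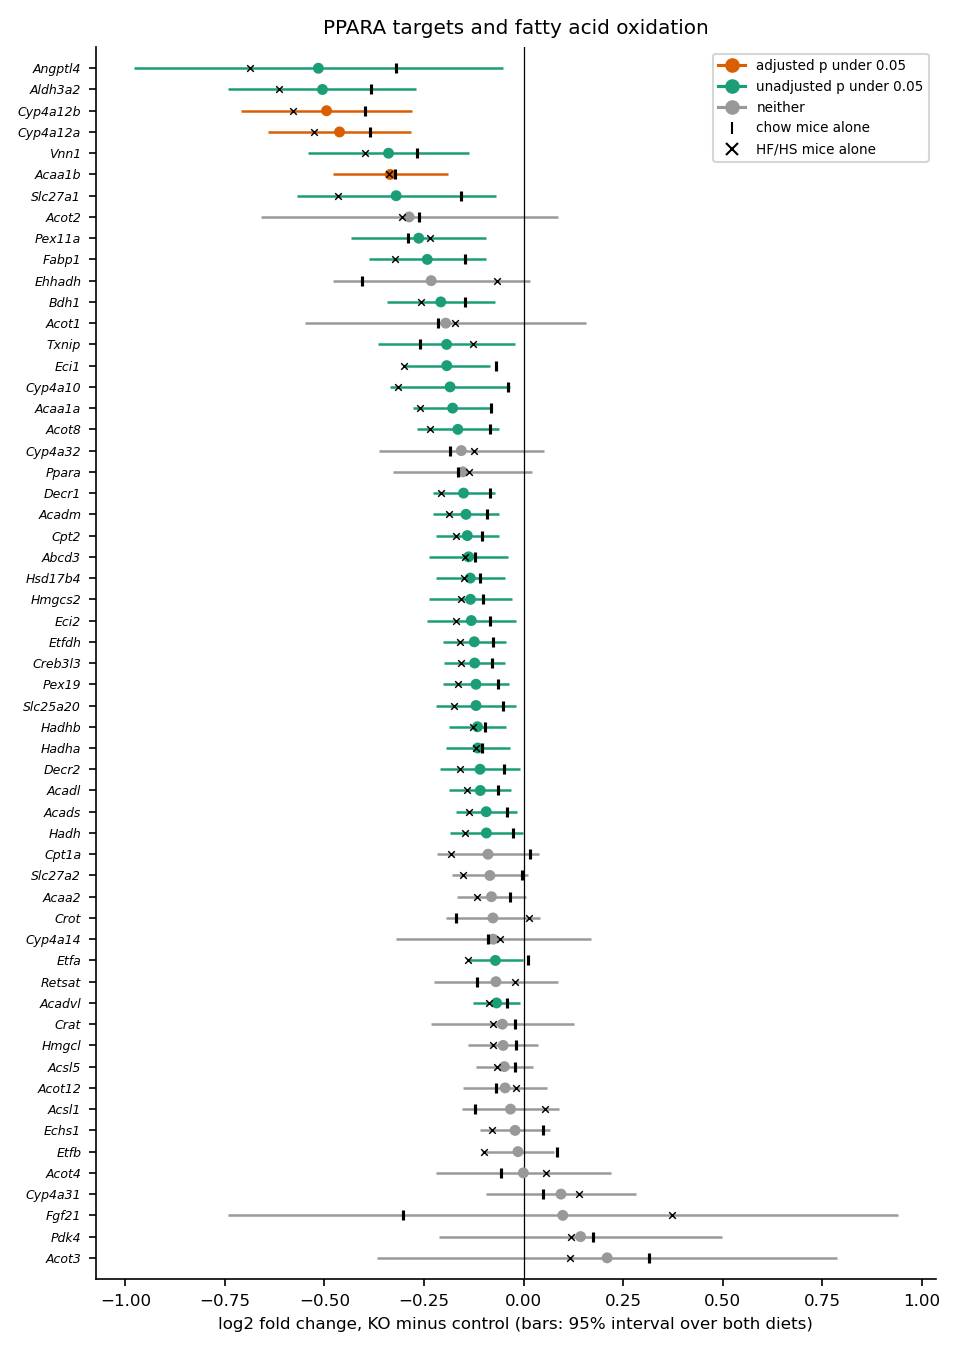
Log2 fold change over both diets, KO minus control, for 57 of the listed PPARα targets and enzymes of fatty acid oxidation, with 95% intervals as bars and the values from chow mice alone (vertical tick) and HF/HS mice alone (cross). Of the 57, 53 lie left of 0, the 3 in orange pass the adjusted threshold, and the green and orange members together are the 34 with an unadjusted p under 0.05.

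The sequences upstream of 2 members are shown because PPARα with its partner RXR is known to bind a direct repeat spaced by 1 base. *Acaa1b* is the member past the threshold for which an upstream sequence was at hand, and *Fabp1*, the liver fatty acid-binding protein, is the 1 member of 43 with such a sequence that holds AGGNCA 2 times in a row with 1 base between them, on either strand. This repeat is found in 0.338% of all 32851 promoters of the same 250 bases. Sequences are from RefSeq on GRCm38.p6, read 5′ to 3′ on the strand of the gene, with the repeat in capitals.
*Fabp1*, chr6:71199629-71199826, plus strand: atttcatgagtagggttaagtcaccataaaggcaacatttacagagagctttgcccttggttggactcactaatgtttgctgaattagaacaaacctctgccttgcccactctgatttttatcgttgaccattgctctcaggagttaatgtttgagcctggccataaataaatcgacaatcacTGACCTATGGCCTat
*Acaa1b*, chr9:119157094-119157343, minus strand: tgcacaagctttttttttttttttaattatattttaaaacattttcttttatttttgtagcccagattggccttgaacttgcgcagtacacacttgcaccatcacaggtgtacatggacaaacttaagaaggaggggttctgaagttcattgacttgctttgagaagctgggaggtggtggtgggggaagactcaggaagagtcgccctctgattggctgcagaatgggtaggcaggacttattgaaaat
The first base of the repeat lies 67 bases before the RefSeq start of *Fabp1*, whose window is shown up to the GENCODE start further upstream, and the *Acaa1b* window holds no match to these letters. *Fabp1*, chosen for its sequence after its values were seen, ranged on chow over 2331 to 3275 CPM (median 2577) in the controls and 1992 to 2957 CPM (median 2348) in the knockouts. On HF/HS it ranged over 3354 to 4649 CPM (median 3835) in the controls and 2424 to 3941 CPM (median 3090) in the knockouts. The groups overlapped, and the gene did not pass (log2 fold change -0.24 ± 0.07 (SE), edgeR adjusted p = 0.135).

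Among the other metabolic and housekeeping lists, proteasome subunits and enzymes of branched-chain amino acid degradation were the next with many low members. Of 39 proteasome genes, 20 were lower and 1 higher at an unadjusted p under 0.05 (51.3% lower, against 6.16% of all genes), with a median of -0.08 and 0 past the adjusted threshold. *Psmd1*, a regulatory-particle subunit, had the smallest p (log2 fold change -0.12 ± 0.03 (SE), edgeR adjusted p = 0.0643). Of 28 branched-chain amino acid genes, 12 were lower and 1 higher (42.9% lower), with a median of -0.09. The 12 include *Hadhb*, which is also on the fatty acid oxidation list, so the lists are not fully separate. Fitted on each diet alone, the medians were -0.04 on chow and -0.11 on HF/HS for the proteasome. For the branched-chain list they were -0.02 and -0.13. Cytosolic ribosomal protein genes went the other way. All 81 had a positive value, 20 with an unadjusted p under 0.05 (24.7% higher, against 6.91% of all genes) and 0 past the adjusted threshold, with a median of 0.08. This group rested in part on 1 library. Without KO chow mouse 1, 9 members were higher at that p and the median was 0.04. With the share of counts on unnamed rows as a covariate, 42 were higher. In those fits 13.2% and 13.9% of all genes had an unadjusted p under 0.05 in either direction, against 13.1% in the main fit. The ribosomal medians of the diets fitted alone were 0.15 on chow and 0.02 on HF/HS. The average over diets does not show groups whose values had opposite signs. Of 75 nuclear genes of oxidative phosphorylation, 4 had a negative value on chow (median 0.08) and 73 a negative one on HF/HS (median -0.07), so that the median over both diets was -0.0046. No gene passed the edgeR test of the genotype by diet difference.

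The shares in this paragraph are read against 6.91% of all genes higher and 6.16% lower at an unadjusted p under 0.05, and 0 members of these lists passed the adjusted threshold. The 61 complement and coagulation genes had 11 members higher (18%) and 4 lower (6.56%) and a median of 0.04. Without both libraries that stood apart, 20 were higher and 2 lower, and the median was 0.08. Proliferation markers had 9 of 53 lower (17%) and 1 higher (1.89%), with *Mcm7*, *Mcm2* and *Mcm3*, subunits of the replicative helicase, having the smallest p-values (edgeR adjusted p = 0.0939, 0.119 and 0.159). The medians of the diets fitted alone were -0.25 on chow and 0.08 on HF/HS. Cholesterol synthesis (25 genes) had 0 members at that p, with medians of 0.10 on chow and -0.11 on HF/HS. The acute phase (27 genes) also had 0, with medians of 0.14 on chow and -0.12 on HF/HS. That count rested on control HF/HS mouse 7, without which 8 acute phase genes were higher and 0 lower and the median over both diets moved from -0.0068 to 0.22. None of the 12 tested neighbors of *Hgfac* in the genome had an unadjusted p under 0.05. Interferon response genes were positive in 32 of 37, with 2 higher at that p (5.41%) and a median of 0.10. Without control HF/HS mouse 7, 11 of them were higher, and without both libraries that stood apart 13. In those fits 14.6% and 14.7% of all genes had an unadjusted p under 0.05 in either direction, against 13.1% with all mice. Markers of sinusoidal endothelium were negative in 16 of 17, 7 of them at that p (41.2% lower). Their median was -0.20 over both diets, -0.21 on chow and -0.14 on HF/HS, below that of the fatty acid oxidation list. Their sum ranged over 276 to 453 CPM in control and 233 to 374 CPM in KO mice on chow. On HF/HS it ranged over 326 to 523 CPM in controls and 306 to 446 CPM in KO mice, so that the genotypes overlapped on both diets, and 0 of the 17 were at 0 in any whole group. The part of this cell type in the other results was not tested.

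**Figure D4:**
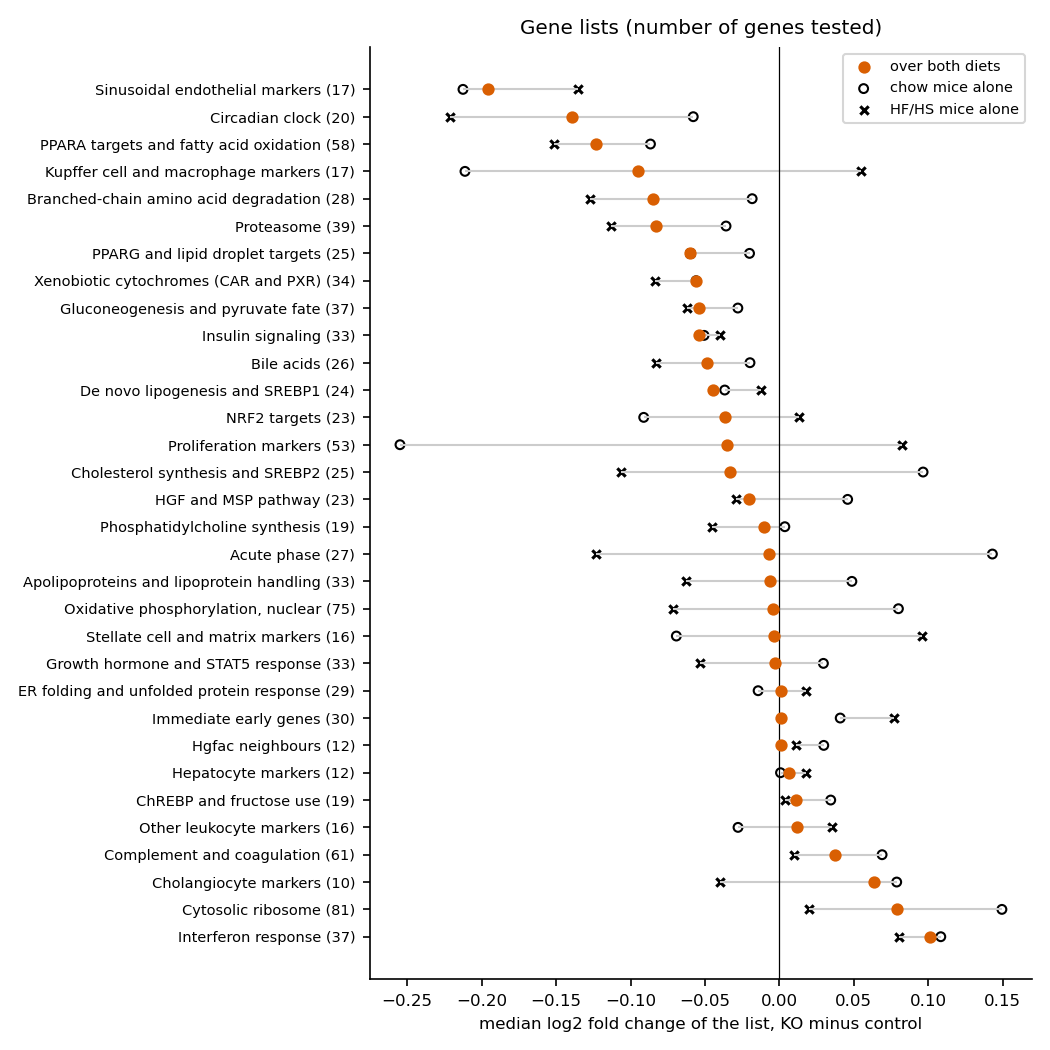
Median log2 fold change, KO minus control, of each gene list with at least 10 genes tested, over both diets (orange) and on each diet alone (open circles for chow, crosses for HF/HS). PPARα targets and fatty acid oxidation, at -0.12, are negative on both diets, whereas oxidative phosphorylation and proliferation markers lie on opposite sides of 0 on the 2 diets. Lower medians belong to sinusoidal endothelial markers, at -0.20, and clock genes, at -0.14, which are also negative on each diet alone.

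No listed gene of the HGF pathway passed the edgeR threshold. *Hgf* ranged on chow over 3.62 to 6.84 CPM (median 6.16) in the controls and 2.65 to 6.55 CPM (median 3.63) in the knockouts. The HF/HS levels were 5.70 to 11.4 CPM (median 8.24) in the controls and 4.99 to 10.8 CPM (median 7.25) in the knockouts. Its log2 fold change was -0.28, with a 95% interval from -0.58 to 0.03 (edgeR adjusted p = 0.448; exact permutation p = 0.0635). *Met* had a log2 fold change of -0.12, with an interval from -0.27 to 0.03 (edgeR adjusted p = 0.503). Of the 23 tested genes of the list for HGF and MSP (macrophage-stimulating protein, a relative of HGF), 3 were higher (13%, against 6.91% of all genes) and 1 lower (4.35%, against 6.16%) at an unadjusted p under 0.05. The 1 lower was *Grb2*, a signaling adaptor chosen after its values were seen. The 3 higher were *Rrbp1*, a ribosome-binding protein of the ER that is on the list but is no component of HGF or MSP signaling (DESeq2 adjusted p = 0.0423), *Mst1r*, the MSP receptor, and *Mst1*, the MSP gene. *Mst1r* had a log2 fold change of 0.68 ± 0.21 (SE) and *Mst1* of 0.10 ± 0.04 (SE), with edgeR adjusted p = 0.159 and 0.308.

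*Pparg* ranged on chow over 5.62 to 7.33 CPM (median 6.31) in the controls and 3.61 to 5.66 CPM (median 4.40) in the knockouts. Its range on HF/HS was 3.24 to 7.55 CPM (median 5.22) in the controls and 2.73 to 5.09 CPM (median 4.03) in the knockouts. All 13 KO mice lay below the median of their controls, the log2 fold change being -0.46 ± 0.11 on chow and -0.44 ± 0.20 on HF/HS, but over both diets the gene did not pass (log2 fold change -0.45 ± 0.12 (SE), edgeR adjusted p = 0.0915; exact permutation p = 0.00216, not adjusted for the 18 genes so tested). Of 25 PPARγ and lipid droplet genes, 6 were lower (24%, against 6.16% of all genes) and 3 higher (12%, against 6.91%) at an unadjusted p under 0.05. Those higher, named after their values were seen, were *G0s2*, an inhibitor of triglyceride lipolysis, *Hilpda*, a lipid droplet protein, and *Lpl*, lipoprotein lipase, with log2 fold changes of 0.40, 0.27 and 0.17 (edgeR adjusted p = 0.232, 0.316 and 0.372). DESeq2 called *Pparg* (adjusted p = 0.0208). *Fitm1*, a lipid droplet protein, was the lowest in p (log2 fold change -0.58 ± 0.13 (SE), edgeR adjusted p = 0.0626), and *Cd36*, a fatty acid transporter, had a log2 fold change of -0.40 ± 0.14 (SE, edgeR adjusted p = 0.224). *Chka*, the choline kinase, rose on HF/HS, where the genotypes did not overlap, at 51.7 to 60.5 CPM (median 55.9) in the controls and 75.3 to 89.8 CPM (median 80.7) in the knockouts (log2 fold change 0.52 ± 0.05 (SE), edgeR adjusted p = 0.000119). On chow they overlapped, at 58.7 to 96.1 CPM (median 72.01) in the controls and 58.8 to 118 CPM (median 77.3) in the knockouts, and the average did not pass (log2 fold change 0.34 ± 0.08 (SE), edgeR adjusted p = 0.0775). *Chpt1*, which makes phosphatidylcholine from diacylglycerol, and *Plpp1*, a lipid phosphate phosphatase, were just outside the threshold (log2 fold change -0.24 ± 0.05 (SE), edgeR adjusted p = 0.052 and log2 fold change -0.33 ± 0.07 (SE), edgeR adjusted p = 0.0567). DESeq2 called *Fitm1*, *Chka*, *Chpt1* and *Plpp1*, with adjusted p-values of 0.00359, 0.0123, 0.00406 and 0.00413. *Pck1*, the gluconeogenic carboxykinase, had a log2 fold change of -0.88 ± 0.30 (SE, edgeR adjusted p = 0.212; exact permutation p = 0.00361, not adjusted for the 18 genes so tested). On chow its levels spread over 763 to 2166 CPM (median 1038) in the controls and 291 to 1652 CPM (median 479) in the knockouts. On HF/HS they spread over 655 to 2842 CPM (median 1489) in the controls and 377 to 1796 CPM (median 608) in the knockouts. The fibrinogen genes *Fga*, *Fgb* and *Fgg* had log2 fold changes of 0.02, 0.03 and 0.02 with standard errors of 0.10, 0.07 and 0.08. Control HF/HS mouse 7 was the highest of its group for each, at 7614, 5792 and 4450 CPM. The medians on HF/HS were 3953, 3336 and 2398 CPM in the controls and 4159, 3644 and 2679 CPM in the knockouts.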

How the data were processed

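Liver mRNA of 27 mice was sequenced from stranded libraries, aligned with HISAT2 to mm10 (GRCm38) and counted by the authors with featureCounts 1.6.3, per the study's methods and processing notes. The deposited table holds raw counts per gene symbol for 27179 rows. Whether the counting used strand is not given in the sources used here.

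From these counts, 3886 rows without a gene name were left out and rows of the 89 symbols that occur on more than 1 row were summed. Samples were grouped by the labelled genotype and diet. Genes were kept with filterByExpr (minimum count 10, minimum total 15) and scaled by TMM, and edgeR 4.0.16 fitted a quasi-likelihood model with robust estimation, diet plus genotype, over all 27 mice. P-values were Benjamini-Hochberg adjusted over all genes tested, with a threshold of 0.05. The diets were also fitted alone, and the genotype by diet term was fitted over all mice. The study's methods name no model. Single genes were checked by an exact permutation test within diets on log2 CPM (prior count 2). Alternatives were DESeq2 1.42.0, limma 3.58.1 (voom), other scalings, filters and covariates, and leaving out mice. The additive fits by the 3 tools and the permutation test were tested on simulated data.

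Named genes were *Hgfac*, the 10 with the smallest p in each direction, all past the threshold (up to 15 per direction), up to 3 per list with an unadjusted p under 0.05, and 13 genes of the study's question. Any other gene is named with a remark that its values were known when it was picked. The comparison and the 34 lists were chosen with earlier results of these data known. One gene of the fatty acid oxidation list enters its counts and is not reported here. Over 78 pairs of libraries within groups, every pair differed by more than sampling noise, with a chi-square per gene of at least 17.7. The labels number the samples within a group without stating that each is a separate animal. They are called mice here, and p-values measure the spread between these samples, which may be technical. Coordinates are from GENCODE vM21, and upstream sequences were found for 15 of the 22 genes past the threshold.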

Additional observations from a re-analysis of the deposited data

Results flagged for a closer look

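Within each group, the highest and the lowest mouse of 28 reported genes were compared with their nearest neighbor on log2 CPM, over 112 gene and group pairs. A gap large for the group's range was found in 5 pairs, and chance gives about 1 in 20. *Enho* was low in control chow mouse 5, at 3.46 against a group median of 4.07. *Dnaic1* was low in control chow mouse 2, at -2.2 against a median of -1.81. *Tafa5* was low in control HF/HS mouse 2, at 0.559 against 1.14. In KO HF/HS mouse 5, *Entpd5* was high at 7.87 against 7.68 and *Met* was high at 6.67 against 6.26. Without that mouse 43 genes passed over both diets in place of 22.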

How the results depend on the processing

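The shared genotype effect kept its direction for each of the 22 genes in every alternative in which that gene was tested, while their number moved. *Gldn* was not tested in chow mice only, nor were *Gldn*, *Dnaic1* and *Rnf225* with at least 10 counts in every library. It was 180 by DESeq2 (163 without independent filtering, chosen after seeing the data), 72 with 1 surrogate variable, 14 by a plain average of the 2 diets, 1 in chow mice only, 2 in HF/HS mice only, and 56 without both libraries that stood apart, chosen after seeing the data. It was within 1.5 times of 22 by limma voom, other scalings, other filters, fits without robust estimation and the share of counts on unnamed rows as covariate (15 to 23). The cause of the difference between tools was not tested. With 1 mouse left out, the count ran from 2 to 63 over both diets, was 1 in every fit on chow, ran from 2 to 11 on HF/HS (5 without control HF/HS mouse 7 and 11 without KO HF/HS mouse 5), was 0 for the genotype by diet term and ran from 2753 to 3572 for diet. DESeq2 called 13 of the 1993 genes it adjusted on chow after independent filtering and 55 of 13544 on HF/HS. These counts are therefore not directly comparable.

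With the replicate number as a block, 14 genes passed over both diets, 13 of them among the 22. The labels do not say what the number stands for. The correlation of same-numbered mice in their deviations from group means ran from -0.252 to 0.368 over 39 pairs. Its median was 0.00584, against -0.00666 for other pairs. It exceeded 0.1 in 10 of the 39 pairs and in 47 of the 234 others. Such correlations cannot show that same-numbered mice share nothing else. The block left the counts on chow (1), on HF/HS (2) and for the genotype by diet term (0) as they were.

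*Cyp2a4* changed sign without both libraries that stood apart (-0.37) and ranged from -0.37 to 2.80 with 1 mouse left out. *Fga* ranged from -0.0096 to 0.13 and *Fgg* from -0.012 to 0.10 in those fits. A prior count of 0.5 left every permutation result on its side of 0.05. Depth limits genes around 1 CPM or below, such as *Gldn* and *Dnaic1*. Several genes given here as not passing by edgeR passed by DESeq2, namely *Aldh3a2*, *Cpt2*, *Pparg*, *Fitm1*, *Chka*, *Chpt1*, *Plpp1*, *Psmd1*, *Mcm7*, *Mcm2*, *Rrbp1*, *Arntl*, *Gsr*, *Ugdh*, *Slco1b2*, *Mup20*, *Angptl8* and *Tff3* (adjusted p from 0.000757 to 0.049).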

Other observations

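Of 20 clock genes tested, 16 had a negative and 4 a positive value in KO livers (median -0.14). At an unadjusted p under 0.05, 4 were higher (20%, against 6.91% of all genes) and 4 lower (20%, against 6.16%), with 0 past the adjusted threshold. Without KO chow mouse 1, 3 were higher and 2 lower, and limma voom gave 2 and 6. Each of these fits had 13.2% of all genes at that p in either direction, against 13.1% in the main fit. *Cry1*, a repressor of the clock, had a log2 fold change of 0.36 ± 0.11 (SE, edgeR adjusted p = 0.135), and *Arntl*, its activator BMAL1, of 0.39 ± 0.12 (SE, edgeR adjusted p = 0.135). *Nr1d2*, a nuclear receptor that represses *Arntl*, was at -0.46 ± 0.17 (SE, edgeR adjusted p = 0.234). The time of tissue collection is not in the labels, and its part in these values was not tested. Of 30 immediate early genes, 4 were higher (13.3%) and 0 lower at that p, and 8 were higher without control HF/HS mouse 7. In that fit 14.6% of all genes had such a p in either direction, against 13.1% with all mice. *Egr1*, a growth factor-induced transcription factor, ranged on HF/HS over 4.00 to 21.4 CPM (median 8.48) in the controls and 5.99 to 58.3 CPM (median 20.6) in the knockouts (log2 fold change 1.09 ± 0.35 (SE), edgeR adjusted p = 0.184).

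Of 23 NRF2 targets, 3 were lower (13%, against 6.16% of all genes) and 0 higher at an unadjusted p under 0.05. The count lower was 6 without control HF/HS mouse 7 and 5 without KO chow mouse 1, by DESeq2, by limma voom and with the replicate block. Apart from DESeq2, these fits had 12.8% to 14.6% of all genes at that p in either direction, against 13.1% in the main fit. The 3 include *Gsr*, glutathione reductase (log2 fold change -0.12 ± 0.03 (SE), edgeR adjusted p = 0.0626), and *Ugdh*, which makes UDP-glucuronate (log2 fold change -0.21 ± 0.06 (SE), edgeR adjusted p = 0.101). *Slco1b2*, the basolateral uptake transporter for bile acids, was at -0.32 ± 0.08 (SE, edgeR adjusted p = 0.0928). Among 33 genes of the growth hormone and STAT5 response, 5 were higher (15.2%, against 6.91% of all genes) and 2 lower (6.06%, against 6.16%) at that p. The 1 past the adjusted threshold was *Cyp4a12a*, the same gene that passed on the fatty acid oxidation list. By limma voom 3 were higher and 4 lower. *Mup20*, a male urinary protein, was at 0.33 ± 0.09 (SE, edgeR adjusted p = 0.0889). *Angptl8*, an insulin-induced secreted regulator of lipoprotein lipase, was at 0.41 ± 0.30 on chow and 1.00 ± 0.23 on HF/HS (edgeR adjusted p over both diets = 0.122).

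*Cyp2a4*, a cytochrome P450 of females with a close paralog in *Cyp2a5*, was highest in KO chow mouse 1 and changed sign without it, chow KO mice ranging over 0.394 to 30.9 CPM (median 0.467) and chow controls over 0.197 to 2.85 CPM (median 0.499). *Tff3*, a trefoil peptide chosen after its values were seen, was highest in the same mouse, the chow KO mice ranging over 1.67 to 59.5 CPM (median 3.08) and the chow controls over 0.295 to 2.58 CPM (median 0.745). The HF/HS *Tff3* ranges were 2.98 to 19.8 CPM (median 6.89) in the controls and 10.4 to 35.05 CPM (median 27.5) in the knockouts. Over both diets its log2 fold change was 2.34 ± 0.53 (SE, edgeR adjusted p = 0.0626), and 1.62 without that mouse. On chow 4 of 6 KO mice and on HF/HS 5 of 7 lay above every control.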
